A study of Bos taurus with 15 samples.

Results

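The 10 genes described here encode proteoglycans of the extracellular matrix. They were *DCN*, *BGN*, *LUM*, *FMOD*, *OGN*, *OMD*, *PRELP* and *ASPN*, which belong to the small leucine-rich family, and the large aggregating proteoglycans *VCAN* and *ACAN*. A gene was a member if its symbol named a row in all 6 comparison tables, and all 10 listed symbols did, out of 13896 genes. The tissue was subcutaneous white adipose tissue from the dewlap of primiparous Holstein cows, sequenced as total RNA after ribosomal RNA depletion. There were 15 libraries in 5 groups of 3. The -4 wkpp group (weeks peripartum) was sampled 4 weeks before calving, before the diets began. The MNEB groups came from cows on the high-energy (HE) diet with a moderate negative energy balance, at 1 and 16 wkpp. The SNEB groups came from cows on the low-energy (LE) diet with a severe negative energy balance, at the same times. Both diets ran from about a month before calving, and the sequenced cows were picked from a larger trial for the most extreme energy balance at 1 wkpp, so diet and energy balance cannot be told apart. The same 3 libraries of -4 wkpp served as the reference for both NEB groups.

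Proteoglycans are core proteins that carry glycosaminoglycan chains. The small leucine-rich members bind collagen fibrils, control their diameter and spacing, and hold growth factors such as TGF-beta in the matrix. The large aggregating members bind hyaluronan and fill the space between fibres with a hydrated gel. In adipose tissue this matrix is laid down mainly by fibroblasts and adipocyte progenitors around the fat cells.

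The tables gave means of 6 libraries, and the counts of single libraries were worked out as the whole numbers that meet these means in all 6 tables. A normalized count is a library's read count divided by its size factor, a scale for depth. Exon counts cover the exons of a gene, and whole gene counts cover exons and introns. A log2 fold change is positive where the first-named group was higher. A gene was called where the Benjamini-Hochberg adjusted p of limma voom was below 0.01 in both the exon and the whole gene analysis, with the same sign. Libraries of a group are listed by falling size factor, and their order is no replicate number of the labels. Per the study's methods, every animal was biopsied at -4, 1 and 16 wkpp, so libraries of different times can come from the same cow. Each library is known by its group only, not by its cow, so the tests take the libraries as independent, and the p-values measure the spread between these libraries.

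Exon reads on genes ranged from 2.21 M to 14.9 M per library (M, 10 to the power of 6), and whole gene reads from 3.91 M to 32.4 M. The 6 MNEB libraries stood apart. They held 2.21 M to 7.66 M exon reads, against 8.4 M to 14.9 M in the other 9 libraries. Synthetic RNA spike-ins made up 4.5 to 27.1% of their exon counts and 0.294 to 2.28% in the other 9 libraries, over the 88 spike-ins whose counts could be used. Every comparison of an MNEB group with -4 wkpp or SNEB libraries carries this difference in depth and spike-in share, while the ranges of both MNEB groups overlapped. In the adipocyte list, 5 of 7 markers were in the tables, among them *FABP4*, *PLIN1* and *LIPE*, and the lowest library held 727 *LIPE* exon reads. *ADIPOQ* was not analysed here.

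In the cattle annotation of RefSeq (assembly ARS-UCD2.0, used for gene order only), all 10 genes were matched by symbol. *LUM* and *DCN* lay next to each other, beside the small leucine-rich genes *KERA* and *EPYC*. *FMOD* and *PRELP* were neighbours, followed by *OPTC*. *OGN*, *OMD* and *ASPN* lay in a row with *ECM2*, inside the span of *CENPP*. *VCAN* was next to *HAPLN1* and *ACAN* next to *HAPLN3*, both genes of link proteins that fix large proteoglycans to hyaluronan. *BGN* lay next to *ECMX*.

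Across the 5 groups, 8 of the 10 genes had their lowest exon mean in MNEB 1 wkpp and their next lowest in MNEB 16 wkpp, all but *OMD* and *ACAN*. SNEB 16 wkpp was highest for *DCN*, *LUM*, *FMOD* and *VCAN*, and -4 wkpp for *BGN*, *OGN*, *PRELP* and *ASPN*. Together the 10 genes took 1.19 ± 0.122% (SD, n = 3) of all exon reads on genes at -4 wkpp. Their share was 0.186 ± 0.0278% in MNEB 1 wkpp, 0.317 ± 0.0291% in MNEB 16 wkpp, 0.694 ± 0.143% in SNEB 1 wkpp and 1.17 ± 0.108% in SNEB 16 wkpp. No library of either MNEB group reached the share of any other library. In bulk tissue, fewer cells of a type and less RNA per cell cannot be told apart.

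**Figure D1:**
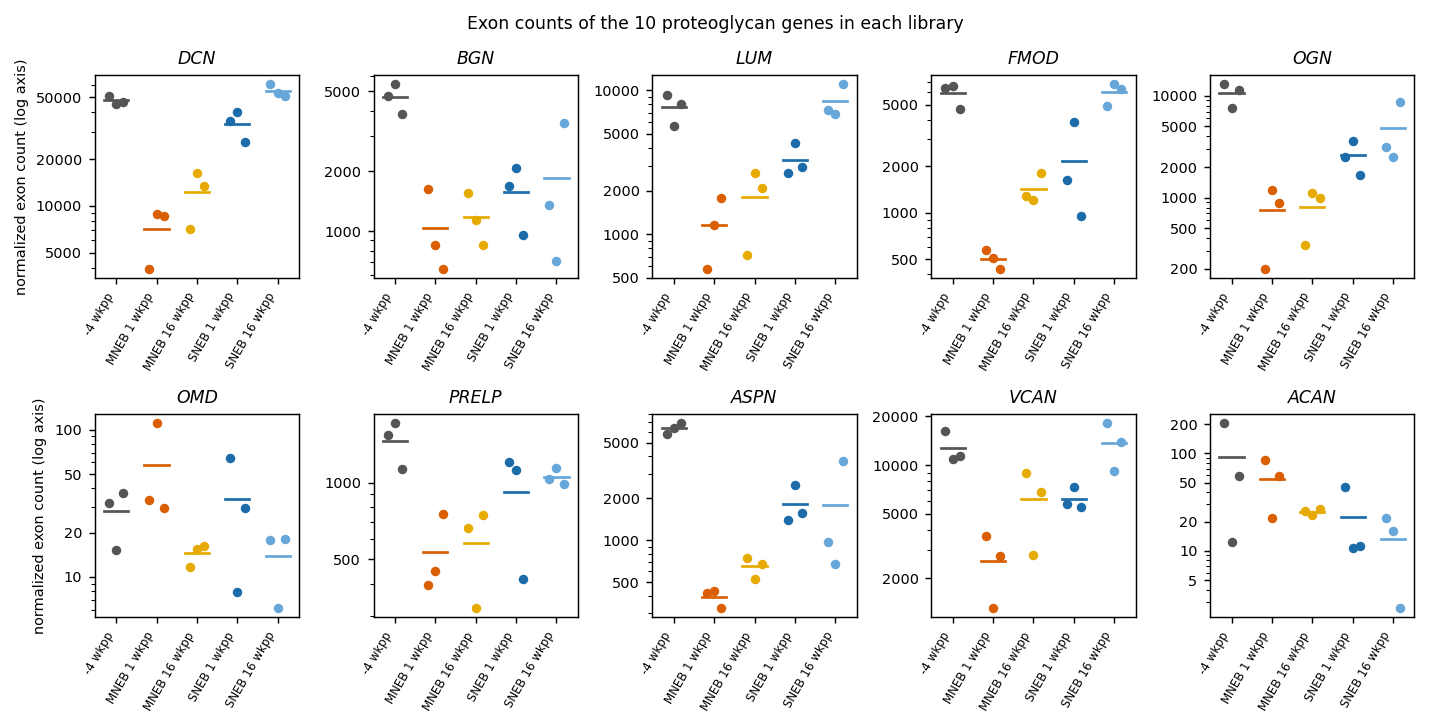
Normalized exon counts (log axes, each panel with its own range) of the 10 genes in the 15 libraries. Each point is a library, the bar is the mean of 3, and colours mark the 5 groups. For *DCN* the 6 MNEB libraries sit between 3933 and 16300, below all 9 others, and *OGN* is the only other gene with such a split.

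Decorin (*DCN*) coats collagen fibrils and binds TGF-beta. At -4 wkpp its normalized exon counts were 51056, 45503 and 46528. In MNEB cows they were 3933, 8860 and 8598 at 1 wkpp and 7059, 16300 and 13367 at 16 wkpp. In SNEB cows they were 35259, 40413 and 25625 at 1 wkpp and 60974, 53595 and 50677 at 16 wkpp. All 6 MNEB libraries were below every other library, and -4 wkpp and SNEB 16 wkpp were highest. *DCN* was 7.16-fold higher at -4 wkpp than in MNEB 1 wkpp (log2 2.84 ± 0.31 SE, adjusted p = 0.000244), and 6.67-fold in whole gene counts (adjusted p = 0.00745). At 16 wkpp it was 4.6-fold higher in SNEB than in MNEB cows (log2 2.20 ± 0.34 SE, adjusted p = 0.00281), and 4.13-fold in whole gene counts (adjusted p = 0.00791). It was called in both of these comparisons. At 1 wkpp the exon counts were 4.98-fold higher in SNEB than in MNEB cows (adjusted p = 0.00889), but the whole gene analysis did not pass (adjusted p = 0.0503). Between -4 wkpp and SNEB 1 wkpp the fold was 1.44 (95% interval of log2 0.02 to 1.03, adjusted p = 0.321).

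Biglycan (*BGN*), the closest relative of decorin, also binds collagen and growth factors. Its normalized exon counts at -4 wkpp were 4742, 5464 and 3851. MNEB libraries held 1617, 848 and 647 at 1 wkpp and 1549, 1139 and 853 at 16 wkpp. SNEB libraries held 1683, 2071 and 957 at 1 wkpp and 1353, 708 and 3484 at 16 wkpp. *BGN* was thus highest in the 3 libraries before calving, and the SNEB and MNEB ranges overlapped at both times. Its level at -4 wkpp was 4.75-fold that of MNEB 1 wkpp in exon counts (adjusted p = 0.00104), and 4.18-fold in whole gene counts, where the adjusted p was 0.0299. Against SNEB 1 wkpp the fold was 3.1 (log2 1.63 ± 0.29 SE, adjusted p = 0.0321). SNEB against MNEB gave log2 0.62 ± 0.39 (SE) at 1 wkpp and 0.39 ± 0.49 at 16 wkpp, both with an interval that holds 0. The highest SNEB 16 wkpp library for *BGN* was also the highest of its group for *ASPN*, *OGN* and *LUM*. Without that library, SNEB against MNEB gave a log2 value of -0.24 for *BGN* at 16 wkpp.

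Asporin (*ASPN*) is the third member of this class and binds collagen and TGF-beta, usually without a glycosaminoglycan chain. Normalized exon counts were 5789, 6316 and 6895 at -4 wkpp. They were 418, 435 and 327 in MNEB 1 wkpp and 752, 532 and 682 in MNEB 16 wkpp. SNEB libraries held 1393, 2495 and 1563 at 1 wkpp and 977, 683 and 3707 at 16 wkpp. The libraries before calving were above all 12 others, and all 3 SNEB 1 wkpp libraries were above all 6 MNEB libraries. The level at -4 wkpp exceeded that of MNEB 1 wkpp 16.1-fold in exon counts (log2 4.01 ± 0.22 SE, adjusted p = 1.15e-05) and 10.6-fold in whole gene counts (adjusted p = 0.00268), and the gene was called. From -4 wkpp to SNEB 1 wkpp, *ASPN* was the single member that passed in exon counts, 3.6-fold (adjusted p = 0.00833). The whole gene fold was 3.03 (adjusted p = 0.0165), which did not pass. SNEB exceeded MNEB at 1 wkpp by 4.48-fold in exon counts (adjusted p = 0.00722) and 3.5-fold in whole gene counts (adjusted p = 0.0438). At 16 wkpp the groups overlapped (log2 1.06 ± 0.53 SE, adjusted p = 0.175), and without the third SNEB library, which held 3707, the log2 value was 0.32.

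Lumican (*LUM*) regulates fibril assembly and shares its collagen site with fibromodulin. Normalized exon counts were 9251, 5640 and 8012 at -4 wkpp. They were 576, 1154 and 1776 in MNEB 1 wkpp and 718, 2681 and 2093 in MNEB 16 wkpp. SNEB libraries held 2676, 4323 and 2918 at 1 wkpp and 7297, 6793 and 11077 at 16 wkpp. Within each time, every SNEB library was above every MNEB library. The fold from -4 wkpp to MNEB 1 wkpp was 7.35 in exon counts (log2 2.88 ± 0.37 SE, adjusted p = 0.000546) and 6.96 in whole gene counts (adjusted p = 0.0104), just outside the threshold. At 16 wkpp, SNEB was 5.11-fold above MNEB in exon counts (adjusted p = 0.011) and 4.66-fold in whole gene counts (adjusted p = 0.024). At 1 wkpp the difference was 3.2-fold (adjusted p = 0.0221). *LUM* was therefore called in no comparison.

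Fibromodulin (*FMOD*) acts on collagen cross-linking and fibril thickness. At -4 wkpp its normalized exon counts were 6429, 6630 and 4696. MNEB libraries held 574, 508 and 434 at 1 wkpp and 1290, 1208 and 1798 at 16 wkpp. SNEB libraries held 1622, 3883 and 955 at 1 wkpp and 4879, 6810 and 6312 at 16 wkpp. The 3 MNEB 1 wkpp libraries were the lowest of the 15. *FMOD* was called higher at -4 wkpp than in MNEB 1 wkpp, 11.5-fold in exon counts (log2 3.53 ± 0.24 SE, adjusted p = 2.91e-05) and 9.7-fold in whole gene counts (adjusted p = 0.00496). It was also called higher in SNEB than in MNEB cows at 16 wkpp, 4.25-fold in exon counts (log2 2.09 ± 0.23 SE, adjusted p = 0.000856) and 3.58-fold in whole gene counts (adjusted p = 0.00482). From 1 to 16 wkpp its exon ranges did not overlap in either NEB group. The 1 minus 16 wkpp log2 values were -1.48 ± 0.24 (SE) in MNEB and -1.74 ± 0.46 in SNEB cows, with adjusted p = 0.201 and 0.683.

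Prolargin (*PRELP*) links basement membranes to connective tissue. Its normalized exon counts were 1537, 1717 and 1130 at -4 wkpp. MNEB libraries held 397, 451 and 754 at 1 wkpp and 666, 321 and 747 at 16 wkpp. SNEB libraries held 1204, 1127 and 418 at 1 wkpp and 1035, 1148 and 990 at 16 wkpp. The range over group means was narrow, the highest being 2.74 times the lowest. *PRELP* was 2.93-fold higher at -4 wkpp than in MNEB 1 wkpp in exon counts (adjusted p = 0.00248), while the whole gene fold of 2.48 did not pass (adjusted p = 0.0641). At 16 wkpp the SNEB libraries were all above the MNEB libraries, by 1.92-fold (adjusted p = 0.0396).

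Osteoglycin (*OGN*, also called mimecan) is a small proteoglycan of connective tissue that modulates fibril growth. Normalized exon counts were 13121, 7640 and 11487 at -4 wkpp. They were 200, 1178 and 886 in MNEB 1 wkpp and 347, 1100 and 983 in MNEB 16 wkpp. SNEB libraries held 2498, 3623 and 1678 at 1 wkpp and 3174, 2492 and 8671 at 16 wkpp. All 6 MNEB libraries were below all 9 others. The exon fold from -4 wkpp to MNEB 1 wkpp was 19.5 (log2 4.28 ± 0.55 SE, adjusted p = 0.000575), with the widest interval of the 8 genes that passed (95% interval of log2 3.05 to 5.51). Without the first MNEB 1 wkpp library, which held 200, the log2 value was 3.39, and without the second it was 4.88. SNEB exceeded MNEB 4.7-fold at 1 wkpp (log2 2.23, adjusted p = 0.0364) and 6.07-fold at 16 wkpp (log2 2.60, adjusted p = 0.0104). Without the first MNEB library of each time these log2 values were 1.3 and 1.99, and without the second MNEB 1 wkpp library the value at 1 wkpp was 2.84. Against SNEB 1 wkpp, the -4 wkpp level was 4.25-fold higher (adjusted p = 0.0166). The whole gene table listed *OGN* at 0 in all 15 libraries, so it could not be called. It was 1 of 132 genes that had 100 or more exon reads over the 15 libraries and no whole gene reads. The position of *OGN* inside *CENPP* in the other assembly is given above, and its part in the missing reads was not tested.

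Osteomodulin (*OMD*) is a keratan sulfate proteoglycan best known from bone. Few of its reads were exonic: 6 to 119 exon reads per library, against 212 to 1599 whole gene reads. Exon reads made up 0.958 to 9.52% of its whole gene reads (median 3.02%), compared with 41 to 61.6% over all genes. Normalized whole gene counts were 638, 499 and 1009 at -4 wkpp. They were 393, 1693 and 1498 in MNEB 1 wkpp and 780, 597 and 769 in MNEB 16 wkpp. SNEB libraries held 676, 526 and 655 at 1 wkpp and 751, 629 and 507 at 16 wkpp. The range of MNEB 1 wkpp overlapped that of every other group. In exon counts MNEB 1 wkpp, at 29.4 to 111, was above MNEB 16 wkpp, at 11.7 to 16.2 (log2 1.64 ± 0.66 SE, adjusted p = 0.333). *OMD* passed in no comparison in either analysis, and its whole gene log2 fold from -4 wkpp to MNEB 1 wkpp was -0.41 (95% interval -1.72 to 0.91).

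Versican (*VCAN*) is the large hyaluronan-binding proteoglycan of soft connective tissue. Normalized exon counts were 16276, 10960 and 11339 at -4 wkpp. They were 3671, 1308 and 2753 in MNEB 1 wkpp and 8891, 2797 and 6870 in MNEB 16 wkpp. SNEB libraries held 5731, 7383 and 5539 at 1 wkpp and 18194, 9261 and 13874 at 16 wkpp. The MNEB 1 wkpp libraries were below those of -4 wkpp and of both SNEB groups. *VCAN* was 5.43-fold higher at -4 wkpp than in MNEB 1 wkpp in exon counts (log2 2.44 ± 0.36 SE, adjusted p = 0.00107) and 4.99-fold in whole gene counts (adjusted p = 0.0132). SNEB exceeded MNEB 2.66-fold at 1 wkpp (adjusted p = 0.0321) and 2.49-fold at 16 wkpp (adjusted p = 0.0675). *VCAN* was called in no comparison.

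Aggrecan (*ACAN*), the large proteoglycan of cartilage, had few reads, 4 to 356 exon reads per library. Normalized exon counts were 205, 12.2 and 58.8 at -4 wkpp. They were 85.5, 21.6 and 58.8 in MNEB 1 wkpp and 25.4, 23.1 and 27.1 in MNEB 16 wkpp. SNEB libraries held 44.9, 10.6 and 11.1 at 1 wkpp and 21.8, 15.9 and 2.58 at 16 wkpp. One library of -4 wkpp was far above the other two, and the exon fold from -4 wkpp to MNEB 1 wkpp had a 95% log2 interval of -2.58 to 2.37. At 16 wkpp all 3 SNEB values were below the MNEB values (log2 -1.29 ± 0.73 SE, adjusted p = 0.228), and the log2 value was -0.44 without the third SNEB library and -1.89 without the first. In whole gene counts, MNEB 1 wkpp held 131, 238 and 300, above the SNEB 1 wkpp values of 55.7, 17.6 and 11.9, but the adjusted p was 0.0917. Only 9.52 and 19.3% of the *ACAN* reads in the 2 shallowest MNEB 1 wkpp libraries were exonic, against 37.2 to 85% in the other 13. Of 9 cartilage markers 2 were in the tables, both with few reads: *COL2A1* had 1 to 86 exon reads per library and *MATN1* 0 to 5. Their summed normalized exon count was 235 in the second MNEB 1 wkpp library and 5.22 to 50.6 in all others.

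The comparison of -4 wkpp with 1 wkpp spans both calving and the start of the diets, which cannot be told apart here. The -4 wkpp libraries belong to neither NEB group. For MNEB cows, 3 of the 9 members tested in both analyses were called, all higher at -4 wkpp (*DCN*, *FMOD* and *ASPN*), where 1.82% of 10414 genes were called. In exon counts alone 8 of 10 members passed, all higher at -4 wkpp, against 16.5% of all genes. The exon ranges of the same 8 did not overlap, higher at -4 wkpp, as was the case for 23.0% of all genes. The median exon log2 fold of the members was 2.64, against 0.05 over all genes tested. The count of calls changed when 1 library was left out, while the folds of the 3 called genes changed little. Over the 6 fits the exon log2 value ran from 2.48 to 3.03 for *DCN*, 3.42 to 3.70 for *FMOD* and 3.90 to 4.08 for *ASPN*, with an exon adjusted p of at most 0.00224, 0.000452 and 0.000187. Without any of the 3 -4 wkpp libraries, or without the second MNEB 1 wkpp library, 0 members were called in both analyses, without the third only *ASPN* was, and without the first, the deepest, 5 were. With the 2 shallowest MNEB 1 wkpp libraries left out, a step added after seeing the data, 0 were called, while the exon log2 values were 3.58 for *DCN*, 3.33 for *FMOD*, 3.90 for *ASPN*, 3.68 for *LUM* and 5.69 for *OGN*. They were 1.84 for *PRELP*, and fell by over 1.5 times in fold for *BGN*, to 1.51, and *VCAN*, to 1.77. With 1 MNEB library the spread came from the other group alone, so a call missed there says nothing of the difference. These values are against the deepest MNEB 1 wkpp library alone, which held 7.17 M exon reads.

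For SNEB cows, which shared the 3 libraries before calving with the comparison above, 0 of 9 members were called, where 0.0377% of all genes were. In the exon analysis 1 of 10 passed (*ASPN*), against 0.494% of all genes, and 7 members passed at an unadjusted p below 0.05, as did 1557 of 10729 genes. Exon ranges of 7 members did not overlap, higher at -4 wkpp, against 10.5% of all genes. These were *DCN*, *BGN*, *LUM*, *FMOD*, *OGN*, *ASPN* and *VCAN*. The median exon log2 fold of the members was 1.38, against -0.03 over all genes. Scaling by total counts moved the median of all genes to -0.16 and that of the members to 1.25.

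**Figure D2:**
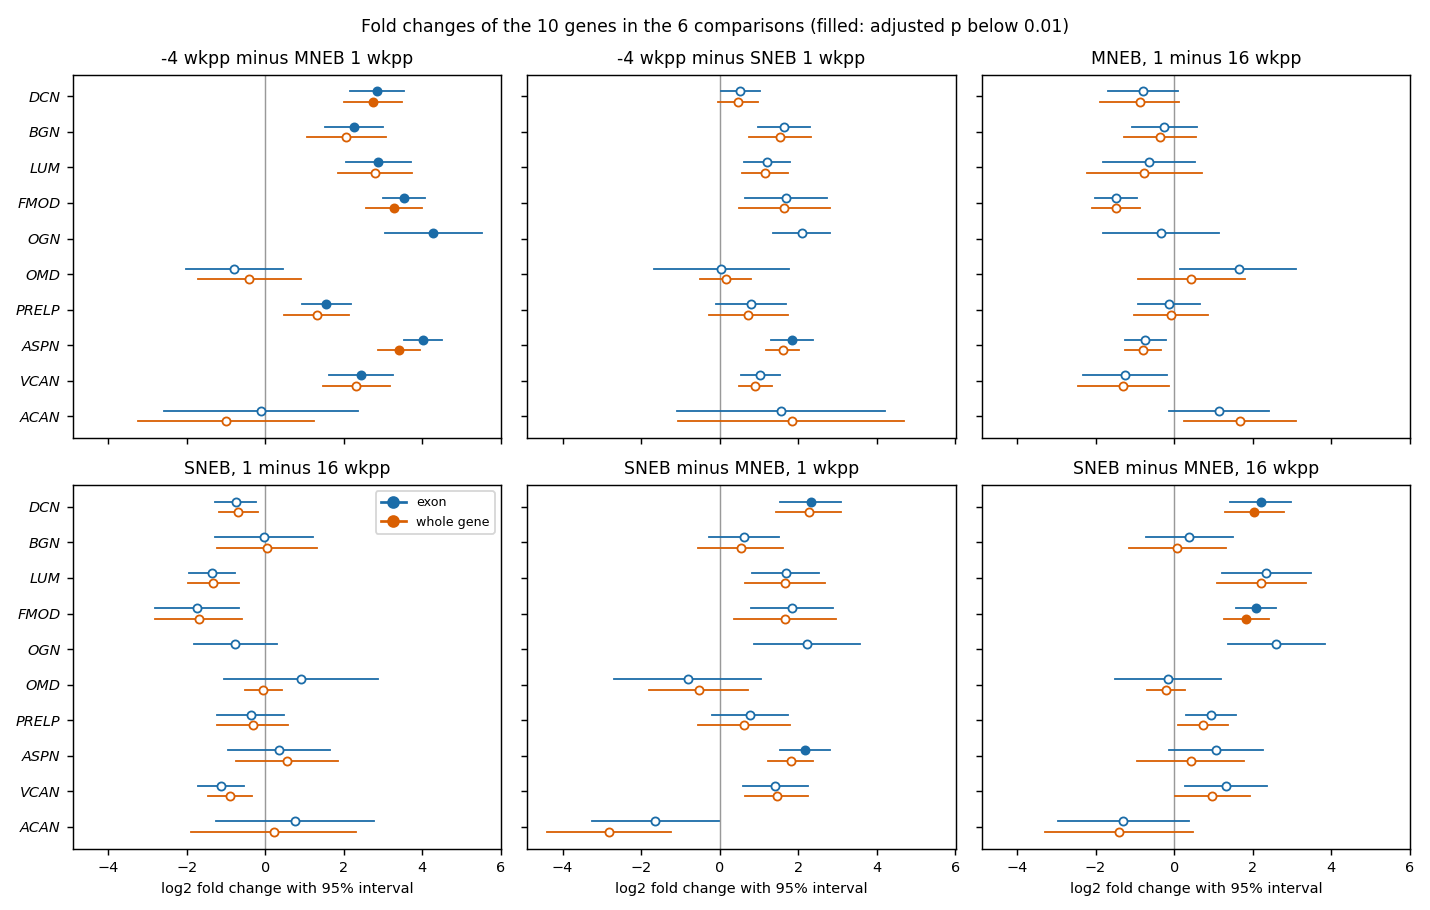
Log2 fold changes of the 10 genes in the 6 comparisons, exon (blue) and whole gene (orange), with 95% intervals from limma; filled points have an adjusted p below 0.01 and *OGN* has no whole gene value. For -4 wkpp against MNEB 1 wkpp, 8 exon points are filled, between 1.55 and 4.28, and no point is filled for the change from 1 to 16 wkpp.

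The change from 1 to 16 wkpp asks how the tissue differed between early and later lactation. In both NEB groups, 0 of 9 members and 0% of all genes passed limma voom in both analyses, and 0 of 10 members and 0% of all genes in exon counts. At an unadjusted p below 0.05, 4 members passed in exon counts in MNEB cows, where 1335 of 9896 genes did, and 4 in SNEB cows, where 763 of 10625 genes did. Exon ranges did not overlap, lower at 1 wkpp, for *FMOD* and *ASPN* in MNEB cows, against 10.2% of all genes. In SNEB cows this held for *DCN*, *LUM*, *FMOD* and *VCAN*, against 4.09% of all genes. In these SNEB cows, 1 minus 16 wkpp gave exon log2 values of -1.37 ± 0.26 (SE) for *LUM* and -1.13 ± 0.26 for *VCAN*. The difference between SNEB and MNEB cows in this change was tested in a fit of all 15 libraries. Of the members, 0 of 9 passed in both analyses and 0 of 10 in exon counts, against 0% of all genes in either, and 0 members had an unadjusted p below 0.05, as did 562 of 10459 genes in exon counts. *ASPN* had an exon difference of 1.09 ± 0.65 (SE) on the log2 scale.

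The comparison of SNEB with MNEB cows asks what goes with the NEB group, set by the energy balance at 1 wkpp only, and with its diet. At 1 wkpp, 0 of 9 members were called in both analyses, as were 0% of all genes. In exon counts 2 of 10 passed (*DCN* and *ASPN*, higher in SNEB), against 1.56% of all genes. At an unadjusted p below 0.05, 7 members passed in exon counts, as did 3386 of 10479 genes. Exon ranges did not overlap, higher in SNEB, for 6 members, against 19.1% of all genes: *DCN*, *LUM*, *FMOD*, *OGN*, *ASPN* and *VCAN*. The median exon log2 difference was 1.55 over the members and 0.07 over all genes. Without the deepest MNEB 1 wkpp library 2 members were called, *DCN* and *ASPN*. With that library as the only MNEB one, the spread came from the SNEB group alone and 0 were called, and the exon log2 values were 3.08 for *DCN*, 2.49 for *LUM*, 3.63 for *OGN*, 1.66 for *FMOD*, 2.07 for *ASPN*, 1.06 for *PRELP*, 0.75 for *VCAN* and -0.11 for *BGN*.

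At 16 wkpp, 2 of 9 members were called in both analyses, *DCN* and *FMOD*, higher in SNEB, where 3.67% of all genes were called. In exon counts the same 2 of 10 passed, against 10.3% of all genes. Exon ranges did not overlap, higher in SNEB, for 6 members, against 22.1% of all genes: *DCN*, *LUM*, *FMOD*, *OGN*, *PRELP* and *VCAN*. The median exon log2 difference was 1.19 over the members and 0.03 over all genes. Leaving out 1 library at a time left 0 or 1 member called, while the exon log2 value ran from 1.91 to 2.44 for *DCN* and from 1.98 to 2.26 for *FMOD*. *FMOD* remained without the first SNEB 16 wkpp library, *DCN* without the first MNEB 16 wkpp library, and neither in the other 4 cases. With the deepest MNEB 16 wkpp library as the only MNEB one, again with no spread of its own, 0 were called, and the exon log2 values were 2.97 for *DCN*, 2.22 for *FMOD*, 3.53 for *LUM* and 3.58 for *OGN*. They were 0.58 for *VCAN*, 0.67 for *PRELP*, 0.87 for *ASPN* and -0.04 for *BGN*, all below the values with all libraries. The depth and spike-in share given above moved with the MNEB groups in each of these comparisons, and their part in the results was not tested.

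Markers of the stroma moved with the members. The summed normalized exon count of 8 fibroblast and stromal markers was 39701 to 51025 at -4 wkpp, 14105 to 19016 in MNEB 1 wkpp and 18549 to 22940 in MNEB 16 wkpp. It was 22535 to 38250 in SNEB 1 wkpp and 42722 to 48916 in SNEB 16 wkpp. Of these 8 markers, 3 were called higher at -4 wkpp than in MNEB 1 wkpp (median exon log2 2.17), against 1.82% of all genes. At 16 wkpp 2 were called higher in SNEB than in MNEB cows (median 1.68), against 3.67% of all genes. The part of these markers in the members' results was not tested. Of 6 tendon and dense connective tissue markers 5 were in the tables, and their sum was 4672 to 7602 at -4 wkpp but 99.1 to 268 in MNEB 1 wkpp, 176 to 922 in SNEB 1 wkpp, 227 to 473 in MNEB 16 wkpp and 412 to 2288 in SNEB 16 wkpp. This sum came mostly from *THBS4* and *KERA*, while the tendon-defining *TNMD* had 0 to 40 exon reads per library and *COMP* 0 to 20. Of 5 adipocyte markers, 2 were called higher at -4 wkpp than in MNEB 1 wkpp (median exon log2 0.90) and 0 at 16 wkpp between SNEB and MNEB cows (median 1.11). At 1 wkpp 0 were called between SNEB and MNEB cows, and 2 passed in exon counts, higher in SNEB (median 1.83). Of the 8 stromal markers, 0 were called there and 2 passed in exon counts, higher in SNEB (median 1.61). Adipocyte markers summed to 44013 to 54024 at -4 wkpp, 18402 to 55434 in MNEB 1 wkpp and 9194 to 38882 in MNEB 16 wkpp. In SNEB cows that sum was 71114 to 86699 at 1 wkpp and 41084 to 47589 at 16 wkpp. Endothelial markers (5 of 5 in the tables) summed to 19259 to 23428 at -4 wkpp, 29708 to 63273 in MNEB 1 wkpp, 23704 to 34023 in MNEB 16 wkpp, 29467 to 36584 in SNEB 1 wkpp and 22206 to 25380 in SNEB 16 wkpp. Limma called 0 of these 5 in any comparison, and 1 passed in exon counts alone, lower at -4 wkpp than in MNEB 1 wkpp. Macrophage markers (4 of 5 in the tables) summed to 10309 to 13490 in SNEB 16 wkpp and 1909 to 2204 in MNEB 16 wkpp, and 2 of 4 were called higher in SNEB at 16 wkpp, with 4 of 4 passing in exon counts (median log2 2.87). The macrophage sum was 4844 to 6901 at -4 wkpp, 1959 to 6859 in MNEB 1 wkpp and 7462 to 11392 in SNEB 1 wkpp, and 0 of 4 were called between these groups. Skeletal muscle markers (7 of 7 in the tables) split the libraries as the members' share of exon reads did, in the opposite direction. Their sum was 1173 to 4088 in MNEB 1 wkpp and 1693 to 3791 in MNEB 16 wkpp, against 84.6 to 354 at -4 wkpp, 108 to 303 in SNEB 1 wkpp and 228 to 338 in SNEB 16 wkpp. Nearly all of it was *TNNT3*, with 94 to 1681 exon reads per library, while *ACTA1* had 0 to 35, *CKM* 0 to 5 and *MYH2* 0 to 13. At 16 wkpp the single marker of this list that could be tested was called lower in SNEB than in MNEB cows. Keratinocyte and hair markers (5 of 5) summed to 176 to 654 at -4 wkpp, 2.09 to 276 in MNEB 1 wkpp, 0 to 22.5 in MNEB 16 wkpp, 0.541 to 1.31 in SNEB 1 wkpp and 0 to 8.83 in SNEB 16 wkpp. Erythrocyte markers (4 of 4) summed to 38.5 to 293 at -4 wkpp and 17.7 to 338 in MNEB 1 wkpp. The erythrocyte sum was 20.5 to 83.9 in MNEB 16 wkpp, 16.2 to 49 in SNEB 1 wkpp and 14.5 to 18.7 in SNEB 16 wkpp. The part of these cell types in the members' values was not tested.

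**Figure D3:**
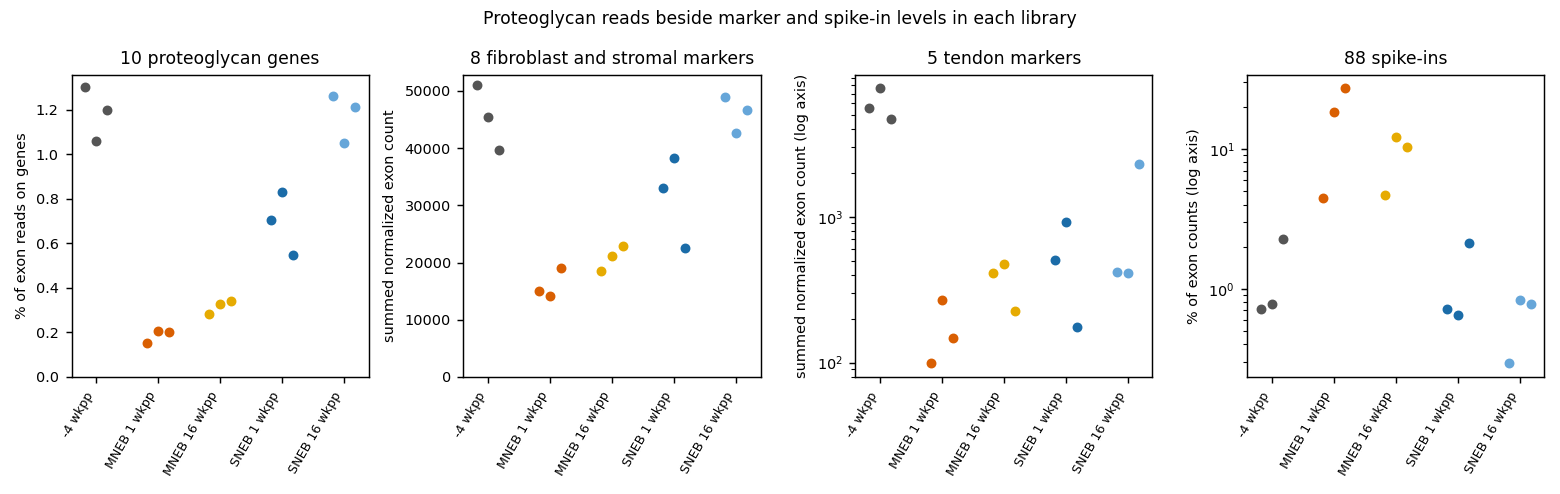
From left to right, one point per library: the 10 genes as a percentage of exon reads on genes, summed normalized exon counts of 8 fibroblast and stromal markers and of 5 tendon markers (log axis), and the percentage of exon counts from 88 spike-ins (log axis). The 6 MNEB libraries are lowest for the proteoglycans, at 0.154 to 0.34%, and highest for the spike-ins.

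The exon and whole gene counts of the same library differed in how far introns contributed. Exon reads made up a median of 98.6% of whole gene reads for *LUM*, 97.4% for *FMOD*, 96.2% for *BGN*, 95% for *PRELP* and 92.9% for *DCN*. The medians for *VCAN* (77.6%) and *ASPN* (64.1%) were lower. For *ASPN* the exon percentage was 79 ± 4.05% (SD, n = 3) at -4 wkpp and 55.8 ± 7.53% in MNEB 1 wkpp, without overlap, so its whole gene fold was smaller than its exon fold.

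**Figure D4:**
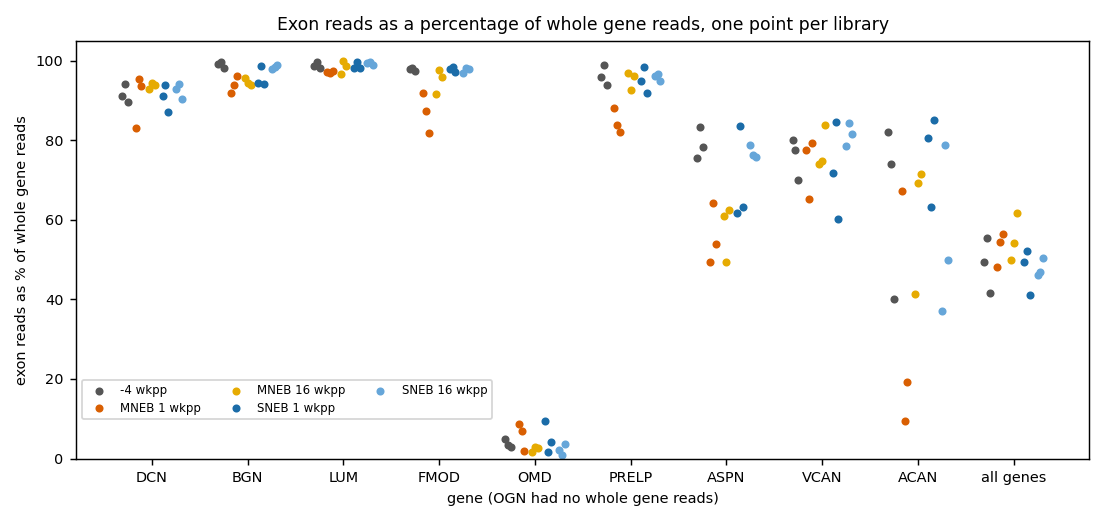
Exon reads as a percentage of whole gene reads for 9 members and for all genes summed, one point per library, coloured by group. *LUM* and *BGN* lie above 90% in every library, *OMD* below 10%, and all genes together between 41 and 61.6%.

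The genes whose pattern was most like each member over the 15 libraries were found among 8328 genes with a mean exon count of at least 100, by Pearson's r of log2(normalized exon count + 1). The points share groups and libraries, so r is a description. *DCN* was most like *RBPJ* (r = 0.975), *CYBRD1* (0.969) and *NT5E* (0.966). *BGN* was most like *LAMA4* (0.923), *COL8A1* (0.923) and *MLEC* (0.905). *LUM* was most like *CTHRC1* (0.953), *MGP* (0.953) and *DCN* (0.951), and *FMOD* most like *THY1* (0.982), *C1QTNF1* (0.956) and *PGD* (0.953). *OGN* was most like its family relative *KERA* (0.962), then *ANGPTL1* (0.954) and *MGP* (0.948). *PRELP* was most like *UBE2D4* (0.936), *ESR1* (0.906) and *TECR* (0.905), *ASPN* like *CD99L2* (0.968), *SLC16A1* (0.957) and *ACADSB* (0.951), and *VCAN* like *IGFBP6* (0.951), *ANXA2* (0.951) and *PPIC* (0.945). *THY1*, a surface protein of fibroblasts and 1 of the stromal markers above, fell from 8468 ± 1519 (SD, n = 3) at -4 wkpp to 781 ± 122 in MNEB 1 wkpp in normalized exon counts (adjusted p = 2.91e-05), and passed in whole gene counts too (adjusted p = 0.00496).

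Among the 8 members with enough reads, the 28 pairs had r between 0.48 (*DCN* and *BGN*) and 0.95 (*DCN* and *LUM*). Once each group's mean was subtracted, r ranged from -0.54 (*DCN* and *VCAN*) to 0.87 (*LUM* and *OGN*), with a median of 0.18. *DCN*, *LUM* and *OGN* kept high values (0.80 to 0.87), and so did *BGN* with *ASPN* (0.79). The 8 genes thus shared the order of the groups more than the differences between libraries of a group.

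Among other small leucine-rich genes, 6 of 7 in the tables were tested in both analyses and 0 were called in any comparison. In exon counts 3 of 6 were higher at -4 wkpp than in MNEB 1 wkpp, where 16.5% of all genes passed in either direction. The list's median log2 was 0.80. *KERA*, which encodes keratocan and also stands among the tendon markers, had 2841 ± 1342 normalized exon counts at -4 wkpp and 39 ± 45 in MNEB 1 wkpp (SD, n = 3, adjusted p = 0.000912), with an adjusted p of 0.0333 in whole gene counts. Of 8 genes of the other lecticans, link proteins and hyaluronan metabolism tested at 16 wkpp, 1 was called, and 0 of the list were called in the other comparisons: *TNFAIP6*, which modifies hyaluronan, was 2.5-fold higher in SNEB than in MNEB cows at 16 wkpp (adjusted p = 0.00615). The list's median log2 there was 0.31, and 3.67% of all genes were called there.

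Of 13 other proteoglycans tested between -4 wkpp and MNEB 1 wkpp, 2 were called, both higher at -4 wkpp. The share of all genes called there was 1.82%. *PRG4*, which encodes lubricin, had 1956 ± 109 normalized exon counts at -4 wkpp and 38.3 ± 21 in MNEB 1 wkpp (SD, n = 3), 60.4-fold (adjusted p = 2.91e-05). *SDC2*, a membrane heparan sulfate proteoglycan, was 5.98-fold higher at -4 wkpp (adjusted p = 0.000297). At 16 wkpp 1 of 12 was called: *CSPG4*, a pericyte proteoglycan, was 3.94-fold lower in SNEB than in MNEB cows (adjusted p = 0.00566). The share over all genes was 3.67% in both analyses and 10.3% in exon counts alone. In exon counts alone 3 of these 12 were higher and 2 lower in SNEB, and the list's median log2 was 0.69, against 0.37 between -4 wkpp and MNEB 1 wkpp. Of the smooth muscle and pericyte markers (5 of 6 in the tables), limma called 0 of 5 in that 16 wkpp comparison and 0 passed in exon counts alone. Their sum was 4550 to 14383 in SNEB 16 wkpp and 18474 to 58191 in MNEB 16 wkpp.

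Of 28 genes of glycosaminoglycan chain synthesis tested between -4 wkpp and MNEB 1 wkpp, 1 was called higher and 2 lower at -4 wkpp. The share of all genes called there was 1.82%. *DSE*, which makes dermatan sulfate, the chain type of decorin and biglycan in many tissues, was 3.47-fold higher (1173 ± 44.7 against 335 ± 70.2 normalized exon counts, SD, n = 3, adjusted p = 0.000546). *CHST1*, a keratan sulfate sulfotransferase, was 5.37-fold lower (adjusted p = 0.000503) and *CHST3*, a chondroitin sulfotransferase, 3.92-fold lower (adjusted p = 0.0004). At 16 wkpp 2 of 28 were called, where 3.67% of all genes were. Both were lower in SNEB than in MNEB cows: *CHST1* 3.57-fold (adjusted p = 0.00246) and *CHST3* 2.89-fold (adjusted p = 0.00104). *CHST1* and *CHST3*, the only sulfotransferases called, stood in the opposite direction to the core proteins *DCN* and *FMOD* in both comparisons. The list's median exon log2 was 0.52 and 0.04.

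Of 11 proteoglycan-cleaving proteases and their inhibitors tested at 16 wkpp, 3 were called, all higher in SNEB than in MNEB cows. The share of all genes called there was 3.67%. *MMP2* was 4.28-fold higher (14001 ± 4362 against 3205 ± 961 normalized exon counts, SD, n = 3, adjusted p = 0.00229) and *MMP14*, which activates MMP2, 3.45-fold higher (adjusted p = 0.00195). *TIMP2*, an inhibitor that also takes part in that activation, was 2.53-fold higher (adjusted p = 0.00409). The median of this list was 0.56. Between -4 wkpp and MNEB 1 wkpp, 0 of its 11 genes were called.

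Of 9 fibrillar collagens and partners tested, *COL1A2* was the single gene called in any comparison. It had 139469 ± 10408 normalized exon counts at -4 wkpp and 15272 ± 5875 in MNEB 1 wkpp (SD, n = 3), 9.92-fold (adjusted p = 0.00016). The median exon log2 of these 9 was -0.22 in that comparison, and 3 passed in exon counts, all higher at -4 wkpp. Of all genes, 1.82% were called there and 16.5% passed in exon counts. *COL3A1* was left out because its counts were too high to be recovered safely. Of 10 TGF-beta ligands, receptors and binding proteins tested, 0 were called in any comparison. In exon counts alone 1 was higher at -4 wkpp than in MNEB 1 wkpp, where 16.5% of all genes passed. By the same rule 1 was higher in SNEB than in MNEB cows at 16 wkpp, where 10.3% of all genes passed. From 1 to 16 wkpp in either NEB group, between -4 wkpp and SNEB 1 wkpp, and between SNEB and MNEB at 1 wkpp, limma called 0 genes of these lists.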

How the data were processed

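Per the labels and the study's methods, stranded total RNA libraries (ribosomal RNA depleted) were demultiplexed (bcl2fastq 2.15.0) and trimmed of adapters (cutadapt 1.3). Reads were mapped to bosTau8 with TopHat2 and counted by HTSeq over exons or the entire gene. The strand setting and the other versions are not given in the sources used here. Spike-ins were known from entries of the deposited data. The authors deposited, for each comparison, DESeq2's mean normalized count of 6 libraries, beside fold changes, standard errors and p-values of their own comparisons, which were not used. There were 0 columns of other samples. The 10 members and all lists were chosen with earlier results of these data known.

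Each deposited mean is a sum of whole counts over size factors, and each library enters 2 or 3 tables. The counts that meet all 6 means were found by lattice reduction (sympy 1.14.0) for all 13988 entries in both analyses, with a largest relative difference of 5.0e-15. Median-of-ratios size factors recomputed from these counts differed from the recovered ones by at most 1.6e-15. Tested on simulated data, all 13983 entries with a highest mean below 300000 came out right. *COL3A1* and 4 spike-ins above that were left out. Values per library are counts over size factors of all 15 libraries.

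limma 3.58.1 (R 4.3.3) voom was fitted to the 6 libraries of each comparison, with library sizes set by that table's size factors, to genes with a mean normalized count of at least 10, and p-values were adjusted by Benjamini-Hochberg over all genes tested. No negative binomial count model was fitted to the recovered counts. The recovered libraries carry no sample label, so their numbers within a group (by size factor) are names only. Tested on simulated counts of the comparison of -4 wkpp with MNEB 1 wkpp (10435 genes, exon), 85% of 4-fold and 5% of 2-fold changes passed an adjusted p of 0.01. The simulation gave all genes the same dispersion and changed only genes with many reads. It covered the exon analysis alone, while a call needs both analyses, so these shares do not hold for the calls. Lists of related genes and of cell type markers are described by counts and medians. Named genes are all members, at most 4 called genes per list and comparison by size of fold, and the 3 most similar genes per member. No gene lengths of this build were at hand, so levels are not compared between genes. Alternatives were scaling, filter, samples in the fit, test, weights, threshold and leaving out libraries.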

Additional observations from a re-analysis of the deposited data

Results flagged for a closer look

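The spike-ins are outside the measurement of genes, and their share of exon counts was above that of all -4 wkpp libraries in every library of both MNEB groups. The lowest MNEB 1 wkpp library had 4.5% and the lowest MNEB 16 wkpp library 4.72%, against at most 2.28% at -4 wkpp. These shares cover the 88 spike-ins used and leave out the 4 whose counts were too high to be recovered safely. Groups of 3 libraries were too small for a search for single outlying libraries. No member's change from 1 to 16 wkpp differed between SNEB and MNEB cows at an unadjusted p below 0.05.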

How the results depend on the processing

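The comparisons of 1 with 16 wkpp in either NEB group, and the difference between them, gave 0 members called under every alternative run, all of them with limma. Between -4 wkpp and MNEB 1 wkpp the 3 members called became 8 with the exon analysis alone, 6 at an adjusted p below 0.05, 5 with all 15 libraries in one fit, 6 with a quality weight per library and 0 without the 2 MNEB libraries with the fewest reads, an alternative chosen after seeing the data. Leaving out 1 library at a time gave 0 to 5. Between -4 wkpp and SNEB 1 wkpp the 0 called became 1 with the exon analysis alone, 1 at an adjusted p below 0.05 and 4 with quality weights, and 0 to 1 with a library left out (1, *ASPN*, without the second SNEB 1 wkpp library). Between SNEB and MNEB at 1 wkpp the 0 called became 2 with the exon analysis alone, 1 at an adjusted p below 0.05, 1 with all 15 libraries in one fit and 3 with quality weights, and 0 to 2 with a library left out. At 16 wkpp the 2 called became 1 without a filter on low counts, 1 with all 15 libraries in one fit, 0 without the 2 MNEB libraries with the fewest reads, and 0 to 1 with a library left out. The cause of these changes was not tested.

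Exon log2 values that changed sign were of members that passed in no analysis of that comparison. With quality weights, *ACAN* between -4 wkpp and MNEB 1 wkpp went from -0.10 to 1.03 (0.18 with limma trend), *OMD* between -4 wkpp and SNEB 1 wkpp from 0.04 to -0.39 (-0.08 with total counts), *OGN* between MNEB 1 and 16 wkpp from -0.34 to 0.05, and *BGN* between SNEB 1 and 16 wkpp from -0.03 to 0.23 (0.07 with total counts). The difference in change went from 0.05 to -0.12 for *DCN* and from -0.36 to 0.25 for *ACAN*. Without the 2 MNEB libraries with the fewest reads, *BGN* between SNEB and MNEB was -0.11 at 1 wkpp and -0.04 at 16 wkpp, and *OMD* was 0.09 at 16 wkpp. With 1 library left out, the values ran from -1.32 to 0.97 (*ACAN*) between -4 wkpp and MNEB 1 wkpp, and from -0.81 to 0.78 (*OMD*) between -4 wkpp and SNEB 1 wkpp. Between MNEB 1 and 16 wkpp they ran from -0.63 to 0.04 (*BGN*), -0.93 to 0.49 (*OGN*) and -0.49 to 0.07 (*PRELP*), and between SNEB 1 and 16 wkpp from -0.58 to 0.59 (*BGN*), -0.65 to 0.12 (*PRELP*), -0.15 to 1.09 (*ASPN*) and -0.09 to 1.36 (*ACAN*). Between SNEB and MNEB they ran from -1.57 to 0.03 (*OMD*) at 1 wkpp, and from -0.24 to 0.95 (*BGN*) and -0.42 to 0.33 (*OMD*) at 16 wkpp. Few reads of *ACAN* and *OMD* exons limit their values. No paired analysis was possible because the recovered libraries carry no replicate number of the labels.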
